A study of Mus musculus with 58 samples.

Results

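Neurotransmitter release depends on a small set of proteins at the nerve terminal, and 35 mouse genes that encode them were followed here in the striatum of 2 mutant mouse lines. They were taken as a fixed list by name. All 35 were found among the 54532 genes of the RNA-seq count tables and among the 18411 genes of the ribosome footprint and lysate RNA tables. The genes fall into 8 roles. Snap25, Stx1a, Vamp1 and Vamp2 encode SNAREs, the membrane-bound proteins that pull vesicle and plasma membrane together, and Nsf and Napb encode the machinery that takes spent SNARE complexes apart. Syt1, Syt2, Syt4, Syt6, Syt7, Syt11 and Doc2b encode synaptotagmins and a related calcium sensor. Cplx1, Cplx2 and Stxbp5 encode regulators of SNARE assembly and fusion. Syn1, Syn2, Syn3, Syp, Sv2a, Sv2b and Sv2c encode proteins of the vesicle itself. Unc13a, Unc13b, Unc13c, Rims1, Rims2, Bsn, Pclo and Erc2 encode active zone scaffolds and priming factors. Rab3a, Rab3b and Rab3c encode vesicle GTPases, and Dnm1 encodes the dynamin that pinches membrane off during vesicle recycling.

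When calcium enters a terminal, synaptotagmins on docked vesicles trigger the final zippering of SNAREs that vesicle priming by the Unc13 proteins had prepared. Messenger RNA for these proteins is made in the cell body. A lysate of striatum alone would therefore hold the transcripts of neurons whose somata lie there, mostly inhibitory projection neurons that use Sv2c alongside Sv2a. The tissue used here also held transcripts of cortical neuron markers, as given below. The glutamatergic axons that reach the striatum come from somata in cortex and thalamus, and Sv2b and Slc17a7 are strongly expressed in cortex.

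The 16p11.2 del/+ mice carry a heterozygous deletion of the mouse segment that corresponds to human 16p11.2. The 3g del/+ mice are heterozygous for premature stops placed by CRISPR/Cas9 in 3 genes of that segment, Taok2, Sez6l2 and Mvp. Each was compared with wild-type (wt) animals of its own line, and the strain is labelled B6129S throughout. The animals were young adult littermates and both mutations are germline, so that no promoter or Cre driver limits them to a cell type. RNA-seq covered both sexes, with 4 libraries per group and 32 in all. Ribosome footprints and RNA of the same lysate were read from male striatum only, in 3 del/+ and 3 wt animals of the 3g line and in 3 del/+ and 4 wt animals of the 16p11.2 line. The question put to the members was whether their striatal level, or the footprints they carry per RNA, differed between del/+ and wt. Replicates are named by the numbers in their labels, and since nothing in those labels ties each RNA-seq library to its own animal, p-values for RNA-seq measure the spread between these libraries.

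To show the sequence upstream of members that stood out across the libraries, promoter windows of 5 members are printed. Each runs from 250 bases before to 50 bases after the transcription start, 5′ to 3′ on the gene's own strand (RefSeq, GRCm38.p6). Capitals mark GGGCGG on either strand (read as CCGCCC on the other), the core of the GC box bound by Sp1, and TTCAGCACC on either strand, the first bases of the neuron-restrictive silencer element bound by REST. Syp, Stx1a and Syn1 had levels that rose with cortical neuron markers, Sv2c had levels that fell with them, and Rab3b was the member with the lowest p for genotype.

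Syp (chrX:7638330-7638629, plus strand): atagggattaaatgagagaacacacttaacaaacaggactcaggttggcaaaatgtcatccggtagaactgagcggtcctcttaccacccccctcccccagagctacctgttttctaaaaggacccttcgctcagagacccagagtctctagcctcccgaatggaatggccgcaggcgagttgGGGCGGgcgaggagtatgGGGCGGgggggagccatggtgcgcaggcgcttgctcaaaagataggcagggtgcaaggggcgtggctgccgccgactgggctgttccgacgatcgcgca
Stx1a (chr5:135023232-135023531, plus strand): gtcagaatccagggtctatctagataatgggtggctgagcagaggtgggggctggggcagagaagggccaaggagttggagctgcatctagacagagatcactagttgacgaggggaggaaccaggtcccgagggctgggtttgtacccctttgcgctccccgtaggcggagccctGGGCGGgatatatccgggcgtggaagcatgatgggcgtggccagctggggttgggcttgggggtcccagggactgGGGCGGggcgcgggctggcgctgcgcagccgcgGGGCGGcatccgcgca
Syn1 (chrX:20920869-20921168, minus strand): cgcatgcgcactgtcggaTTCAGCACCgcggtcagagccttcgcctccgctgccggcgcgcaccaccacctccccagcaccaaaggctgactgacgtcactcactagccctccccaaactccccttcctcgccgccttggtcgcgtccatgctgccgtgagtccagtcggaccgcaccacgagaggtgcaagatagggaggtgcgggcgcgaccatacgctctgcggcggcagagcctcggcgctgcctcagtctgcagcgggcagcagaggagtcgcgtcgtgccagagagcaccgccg
Sv2c (chr13:96132528-96132827, minus strand): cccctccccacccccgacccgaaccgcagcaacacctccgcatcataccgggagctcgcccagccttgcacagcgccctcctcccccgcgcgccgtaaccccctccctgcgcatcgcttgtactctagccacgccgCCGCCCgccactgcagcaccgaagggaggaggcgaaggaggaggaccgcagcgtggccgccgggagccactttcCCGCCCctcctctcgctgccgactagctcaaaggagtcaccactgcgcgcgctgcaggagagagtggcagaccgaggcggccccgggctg
Rab3b (chr4:108878820-108879119, plus strand): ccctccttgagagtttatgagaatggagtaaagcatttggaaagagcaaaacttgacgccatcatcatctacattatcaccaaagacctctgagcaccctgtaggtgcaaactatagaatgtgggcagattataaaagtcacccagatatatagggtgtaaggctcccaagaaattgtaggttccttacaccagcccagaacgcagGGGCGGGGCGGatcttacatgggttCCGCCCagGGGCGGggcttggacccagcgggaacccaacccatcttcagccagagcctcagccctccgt

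The set thus spans 51.7% GC for Rab3b to 71.7% GC for Sv2c. RefSeq windows were held for 28 of the 35 members (37 windows, as some genes have several starts), and their median GC content was 61.3%, against 52.7% over all 32851 windows of the same length. GGGCGG was present in 26 of the 37 member windows (70.3%) and in 35.7% of all windows. TTCAGCACC was present in 2 of them, Syn1 and Unc13a (5.41%), and in 0.371% of all windows. TATAAA was found in 3 windows, of Rab3b and Sv2b (8.11%), against 13.6% of all, and the full cAMP response element TGACGTCA was found in 1, of Syn1 (2.7%), against 1.79%. All were searched on both strands, and neighbouring matches can share letters, as 2 GGGCGG matches do in Rab3b. A match describes letters in the window and not binding.

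RNA-seq libraries held 11711099 to 65529807 counts in the 3g line and 26592767 to 41300015 in the 16p11.2 line. Lysate RNA libraries held 15102576 to 19122488 counts and footprint libraries only 342052 to 678130. The 35 members together took 1.34% to 1.57% of RNA-seq counts in 3g and 1.49% to 1.81% in 16p11.2. Striatal projection neuron markers summed to between 4774 and 8712 CPM (counts scaled to the TMM-adjusted library total) in every RNA-seq library. A panel of 8 cortical glutamatergic neuron markers, among them Slc17a7 and Tbr1, which were above 0 in every RNA-seq library, summed to anything from 91.8 to 993 CPM in 3g and from 832 to 1447 CPM in 16p11.2. In lysate RNA the same panel summed to between 313 and 797 CPM. In bulk tissue, fewer cells of a type and less RNA per cell cannot be told apart. The highest RNA-seq sums were those of 3g wt male 17 (993 CPM) and 16p11.2 wt male 4 (1447 CPM). These libraries, with 16p11.2 del/+ male 4, also stood apart in endothelial markers, in opposite directions in the 2 lines. The outlying endothelial sum was low in 3g wt males (105 CPM, group median 187 CPM). It was high in the wt and del/+ males of 16p11.2 (207 and 192 CPM, group medians 108 and 97.2 CPM). The library labelled 16p11.2 del/+ female 1 held 0.5 CPM of Xist and 38.6 CPM of the Y-linked Ddx3y, against its label. Of the targeted genes, Sez6l2 was lower by log2 -0.57 (adjusted p = 0.807) in 3g males and -0.49 (adjusted p = 0.00336) in 3g females, and by -1.24 and -1.19 in the males and females of 16p11.2. In the 3g line Mvp differed by -0.37 in males (adjusted p = 0.974) and -0.48 in females (adjusted p = 0.0663), and Taok2 by -0.02 in both sexes.

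In RNA-seq, no member passed the genome-wide test for genotype in either sex of either line (edgeR quasi-likelihood test, Benjamini-Hochberg adjusted p under 0.05 over all genes tested). All 35 were tested in each comparison. Over all genes the test called 0% and 0.00526% of those tested in 3g males and females, and 0.106% and 0.144% in the males and females of 16p11.2, so that a count of 0 among 35 genes is near the background. At an unadjusted p under 0.05 there were 12 members in 3g females (11% of all genes) and 1 in 16p11.2 males (5.82%). There were 0 in the 3g males (1.44%) and 0 in the 16p11.2 females (4.47%). DESeq2 called 2 members in 3g females and 0 in the other 3 comparisons. In 3g females it also called more of all genes than edgeR did, with the counts given under dependence on processing.

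The members of 3g females leaned towards higher levels in del/+. The difference was above 0 for 30 of 35, with a median log2 fold change of 0.11 against 0.00 over all genes, and all 12 members with an unadjusted p under 0.05 were higher in del/+, a direction that 5.3% of all genes took at that p. They were Snap25 and Vamp2 of the SNAREs, Nsf and Napb, Syt1, Stxbp5, Syp and Sv2a, Bsn and Unc13b, and Rab3b and Rab3c. Cortical markers moved with them: all 8 were higher in del/+, by a median of 0.75, and all 6 oligodendrocyte markers were lower, by a median of -0.14. The summed cortical markers stood at 551, 716, 514 and 220 CPM in del/+ females 28, 31, 36 and 37 and at 221, 178, 213 and 642 CPM in wt females 29, 30, 35 and 39. Del/+ females 28, 31 and 36 were thus above 3 of the 4 wt libraries in cortical markers, and the part of this in the members' difference was examined by placing the log2 sum in the fit as a covariate, an alternative added after seeing the data. Under it 8 members and 9.76% of all genes had an unadjusted p under 0.05, 28 members were above 0 and their median was 0.04.

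Rab3b, a vesicle GTPase whose gene lies at chromosome 4 from 108879070 to 108943324 (GRCm38), was the 1 member whose 3g female groups did not overlap, a pattern that 5.73% of all genes showed. Its level was 52.8, 60.2, 51.2 and 52.2 CPM in del/+ females and 42.7, 41.6, 43.1 and 47.9 CPM in wt females, or 54.1 ± 4.12 against 43.8 ± 2.78 CPM (SD, n = 4 each). Every del/+ library was above every wt library. The log2 fold change was 0.31 (SE 0.0524, unadjusted p = 7.94e-05) and the adjusted p of edgeR was 0.204. DESeq2 gave an adjusted p of 0.000698, and the cortical covariate gave 0.25 with an adjusted p of 0.067. In 3g males the groups overlapped, at 40.6 to 48.9 CPM in del/+ and 35.99 to 51.8 CPM in wt.

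Snap25, the plasma membrane SNARE that lies on the inner face of the membrane (chromosome 2, 136713439 to 136782428), stood at 1663, 1881, 1641 and 1432 CPM in 3g del/+ females and at 1250, 1286, 1241 and 1570 CPM in 3g wt females. Only wt female 39, the wt library with 642 CPM of cortical markers, and del/+ female 37, the del/+ library with 220 CPM of them, made the groups overlap. The log2 fold change was 0.32 (SE 0.0840, unadjusted p = 0.00283) with an edgeR adjusted p of 0.259, while DESeq2 gave an adjusted p of 0.0251. With the cortical covariate the value was 0.18 (adjusted p = 0.155). Without wt female 39, edgeR called Snap25 at 0.40 (adjusted p = 0.0411), Rab3b at 0.35 (adjusted p = 0.0286) and the calcium sensor Doc2b at -0.23 (adjusted p = 0.0481), among 175 genes called in all. Without del/+ female 37, 22 members had an unadjusted p under 0.05 and 0 were called, while 14.8% of all genes had such a p and 18 genes were called.

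**Figure D1:**
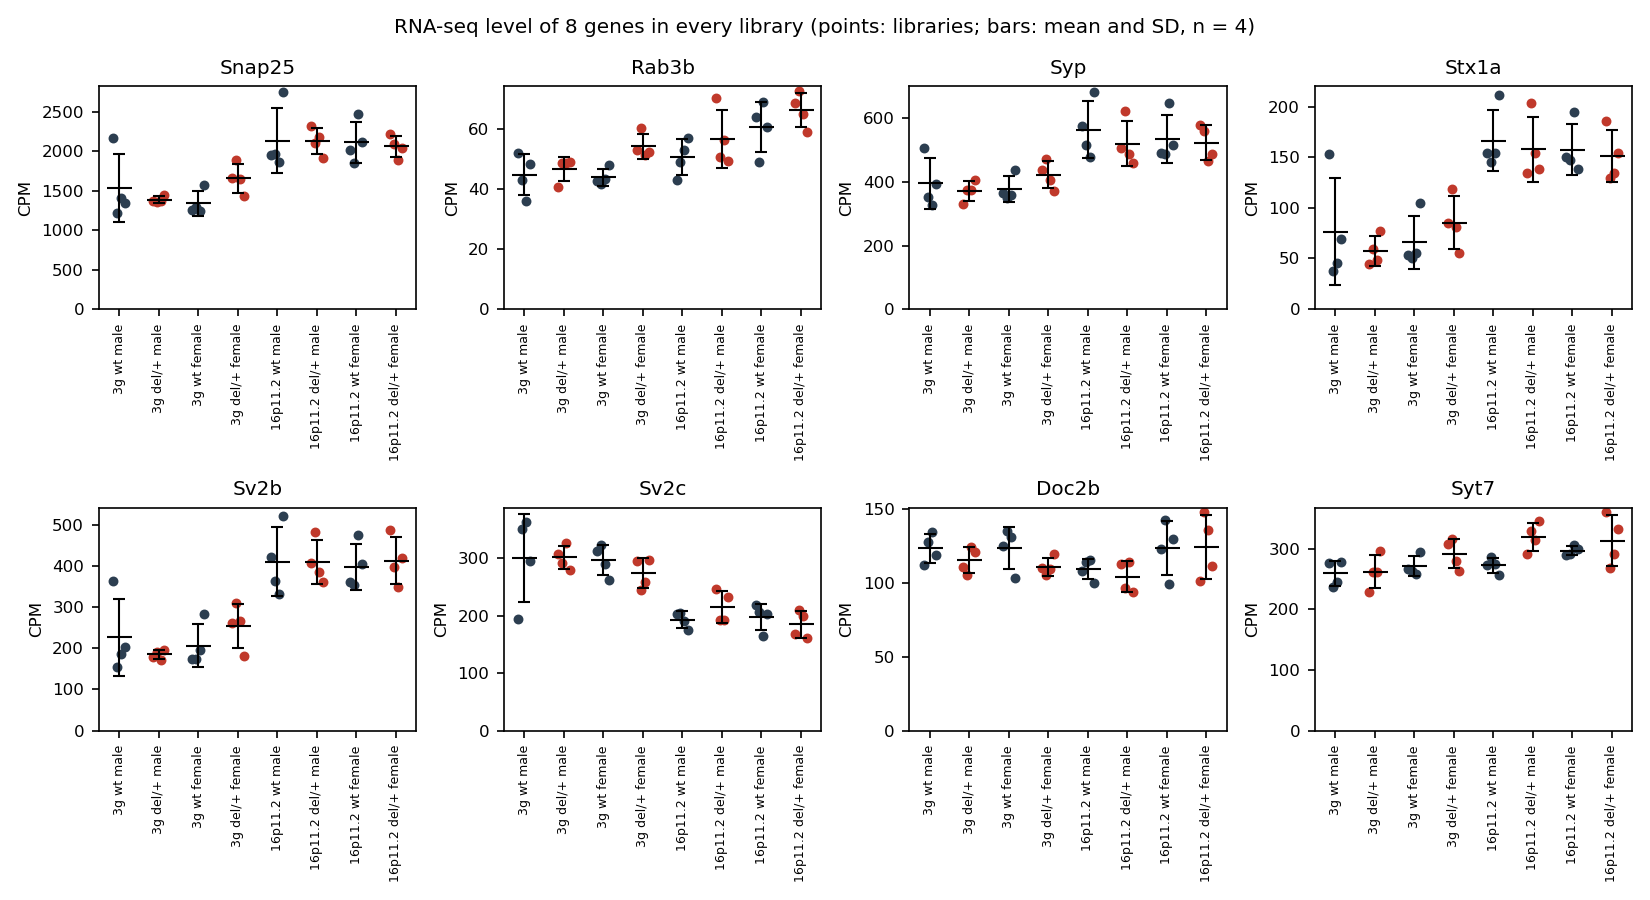
RNA-seq level in CPM (vertical axis, from 0) of 8 members in every library, by line, genotype and sex on the horizontal axis; points are libraries and bars are the mean and SD of 4. Rab3b is higher in every 3g del/+ female than in every 3g wt female, whereas the Snap25 groups overlap through wt female 39 at 1570 CPM.

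The same members showed no such lean in 3g males. Of 35 differences, 16 were above 0 and the median was -0.03. Stx1a, the other plasma membrane SNARE, stood at 44.8, 59.8, 48.1 and 77.7 CPM in del/+ males and at 153, 37.6, 45.1 and 69.6 CPM in wt males. The single high value was wt male 17, and without it the Stx1a difference turned from -0.37 to 0.21 and that of Sv2b, a vesicle glycoprotein, from -0.26 to 0.05. Without wt male 17, 23 members were above 0 and the median was 0.03. Erc2, an active zone scaffold, was the 1 member whose male groups did not overlap (2.05% of all genes). Its level was 152, 156, 159 and 150 CPM in del/+ and 162, 168, 180 and 160 CPM in wt males. All 4 del/+ libraries were just below all 4 wt libraries, but the fitted difference was -0.089 (adjusted p = 0.974). The genotype effect did not differ between the sexes of the 3g line beyond the test for any member (0 members and 0% of all genes called). Snap25 alone had an unadjusted p under 0.05 for that difference, which 2.69% of genes had (0.44, SE 0.19, adjusted p = 0.901 by edgeR).

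In the 16p11.2 line the members were centred on 0. The median log2 fold change was 0.00 in males, where 18 of 35 were above 0, and -0.01 in females, where 16 were. The female values include the library labelled del/+ female 1. With 1 library left out, the female median ran from -0.05 to 0.04. Syt7, the synaptotagmin with high calcium affinity linked to facilitation and asynchronous release, was the member with the lowest p in males. Its level was 291, 329, 315 and 345 CPM in del/+ males and 273, 286, 275 and 256 CPM in wt males. The groups did not overlap, which 3.98% of all genes shared, and the log2 fold change was 0.24 (SE 0.0889, unadjusted p = 0.0214, adjusted p = 0.742). In 16p11.2 females Syt7 ran from 268 to 361 CPM in del/+ and from 289 to 306 CPM in wt, with the wt range inside that of del/+ and a difference of 0.08 (SE 0.0955). The 361 CPM came from the library labelled del/+ female 1, and without it del/+ ran from 268 to 332 CPM and the difference was 0.0030 (SE 0.0888). No member's female groups were apart, against 2.76% of all genes. The spread of single libraries was wider than these differences. Without wt male 4, 26 members were above 0 in males and their median was 0.12. Neither the sex-by-genotype test nor the sex test called a member in 16p11.2 (edgeR called 0% and 0.0053% of all genes). The sex test left 5 members at an unadjusted p under 0.05, all higher in females (7.61% of genes, with 4.33% for the interaction, where no member was), namely the scaffold Rims2 (0.18), Rab3b (0.24), Cplx1 (0.20), Cplx2 (0.20) and Doc2b (0.21). That test counts the library labelled del/+ female 1 as female. Without it the same 5 members had an unadjusted p under 0.05, of 7.85% of genes, at 0.19, 0.23, 0.22, 0.22 and 0.25 in the same order. In 3g the sex test called 0 members and 0.136% of genes, and Unc13b, a priming factor, was the 1 member at an unadjusted p under 0.05 (0.30, higher in females), which 5.85% of genes had. Without wt male 17 there were 14 such members and 10.9% of genes, and 0 members were called.

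**Figure D2:**
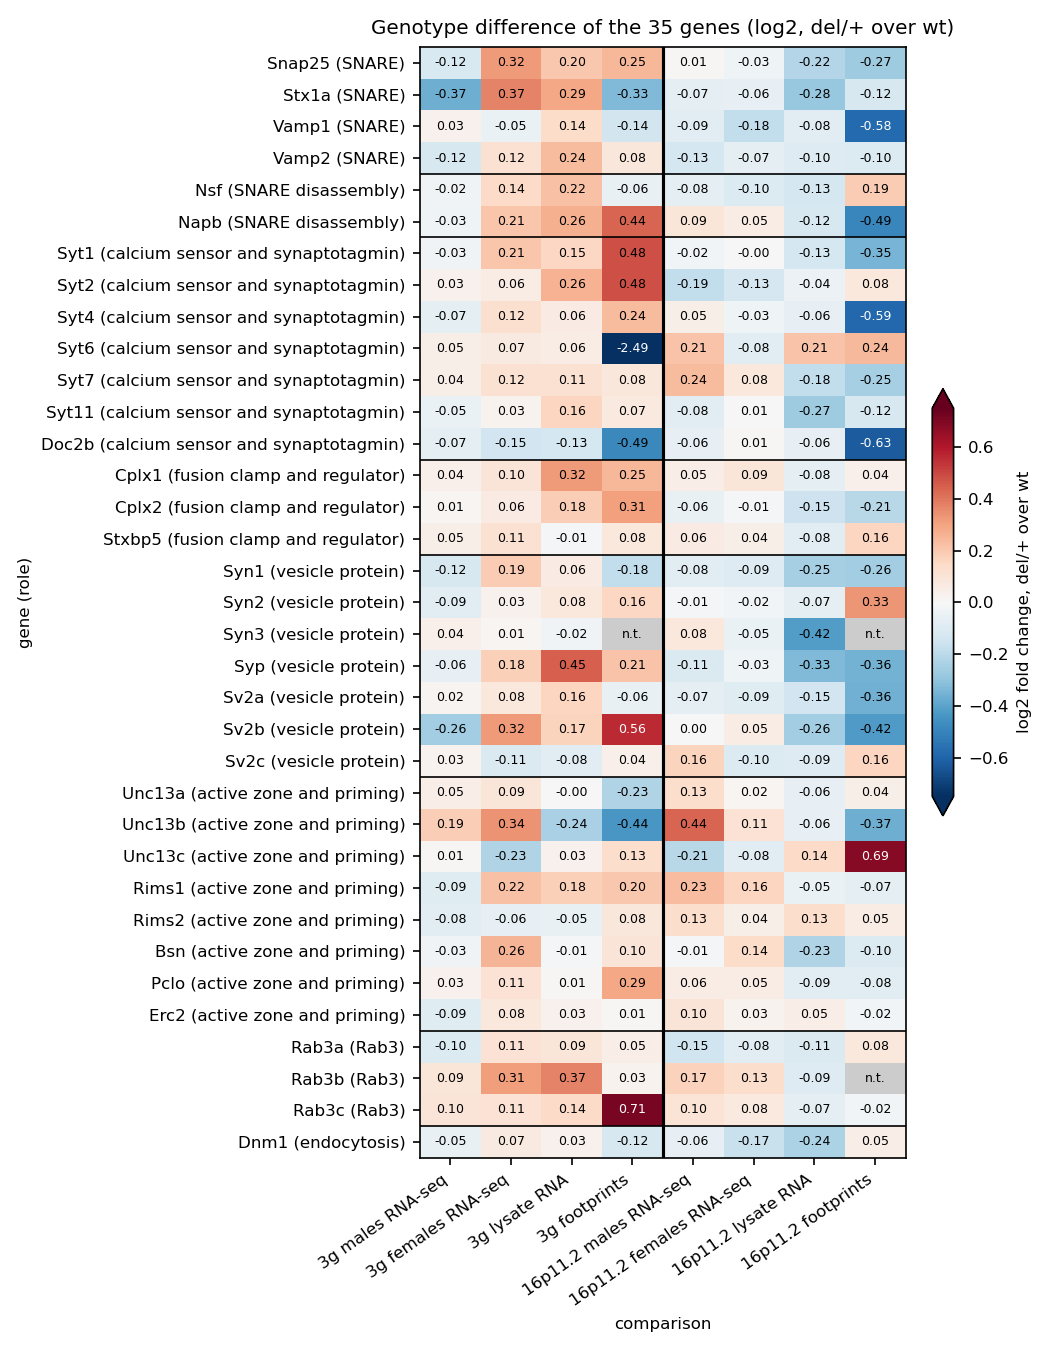
Log2 fold change of del/+ over wt (colour) for the 35 members in rows, grouped by role, in the 8 genotype comparisons in columns. The vertical line parts the columns of the 3g line, on the left, from those of the other mouse line. Each mouse line has columns for male and female RNA-seq, male lysate RNA and male footprints. No cell passes the adjusted threshold, and the 3g female column is positive for 30 of 35 members.

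Several members varied widely among RNA-seq libraries along with the cortical markers. In the 3g line Stx1a ran from 37.6 to 153 CPM, a ratio of 4.06 between the highest and lowest of 16 libraries, whereas Vamp2, the vesicle SNARE, ran from 666 to 1060 CPM, a ratio of 1.59. A fit of every gene on the log2 of the summed cortical markers, with genotype, sex and their interaction, was added after seeing the data. In 3g it called 22 of 35 members, against 26.5% of all genes. Of these, 17 had a positive slope (15.1% of genes) and 5 a negative one (11.4%). In 16p11.2, where the marker sum spanned a narrower range, it called 9 members, 7 with a positive slope (1.53% of genes) and 2 with a negative one (0.413%), of 1.94% of genes in all.

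Stx1a rose by 0.59 on the log2 scale per doubling of the marker sum in 3g (SE 0.0272, adjusted p = 7.96e-11) and by 0.74 in 16p11.2 (SE 0.0931, adjusted p = 0.000927). Sv2b rose by 0.34 (SE 0.0324) in 3g and 0.67 (SE 0.0861) in 16p11.2, Syn1, a phosphoprotein that tethers vesicles, by 0.23 and 0.60, and Syp, the abundant vesicle protein synaptophysin, by 0.16 and 0.54. Syt1, the fast calcium sensor, and Napb also had called positive slopes in both lines. Dnm1 did too, at 0.11 and 0.56. In 3g the other positive calls were Rims1 (0.26), Bsn (0.17), Snap25 (0.19), Rab3a (0.13), Vamp2 (0.13), Cplx1 (0.10), Syt7 (0.09), Rab3b (0.10), Syt11 (0.08) and Unc13b (0.17). The opposite direction was taken by Sv2c, the SV2 form of striatal projection neurons, at -0.22 (SE 0.0316) in 3g and -0.43 (SE 0.103) in 16p11.2, and by the priming factor Unc13c, found mainly in cerebellum, at -0.11 and -0.75. Doc2b (-0.10), Syn3 (-0.13) and Syt6 (-0.09) had called negative slopes in 3g and not in 16p11.2, and the difference between lines was not tested.

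The calls depended on single libraries, for the members more so in 16p11.2. Over all genes the main fits called 5247 in 3g and 367 in 16p11.2. With the 2 libraries farthest from the median marker sum left out, 19 members were called in 3g and 2 in 16p11.2. Over all genes those fits called 1216 and 116. Leaving out 3g wt male 17 alone left 18 members and 1131 genes in all, so most 3g calls over all genes rested on that library. In 16p11.2 the member count was 3 without wt male 4 (157 genes in all) and 3 without wt female 3 (117 genes). It was 5 without the library labelled del/+ female 1 (337 genes) and 15 without del/+ male 4 (809 genes). In the 16 libraries of 3g, Sv2b was highest and Sv2c lowest in the same library, wt male 17, at 364 and 195 CPM. Sv2b was lowest in wt male 24, the library with the lowest marker sum, at 154 CPM, where Sv2c was at 351 CPM. What sets the marker sum (dissection, composition of the tissue or expression) was not tested.

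**Figure D3:**
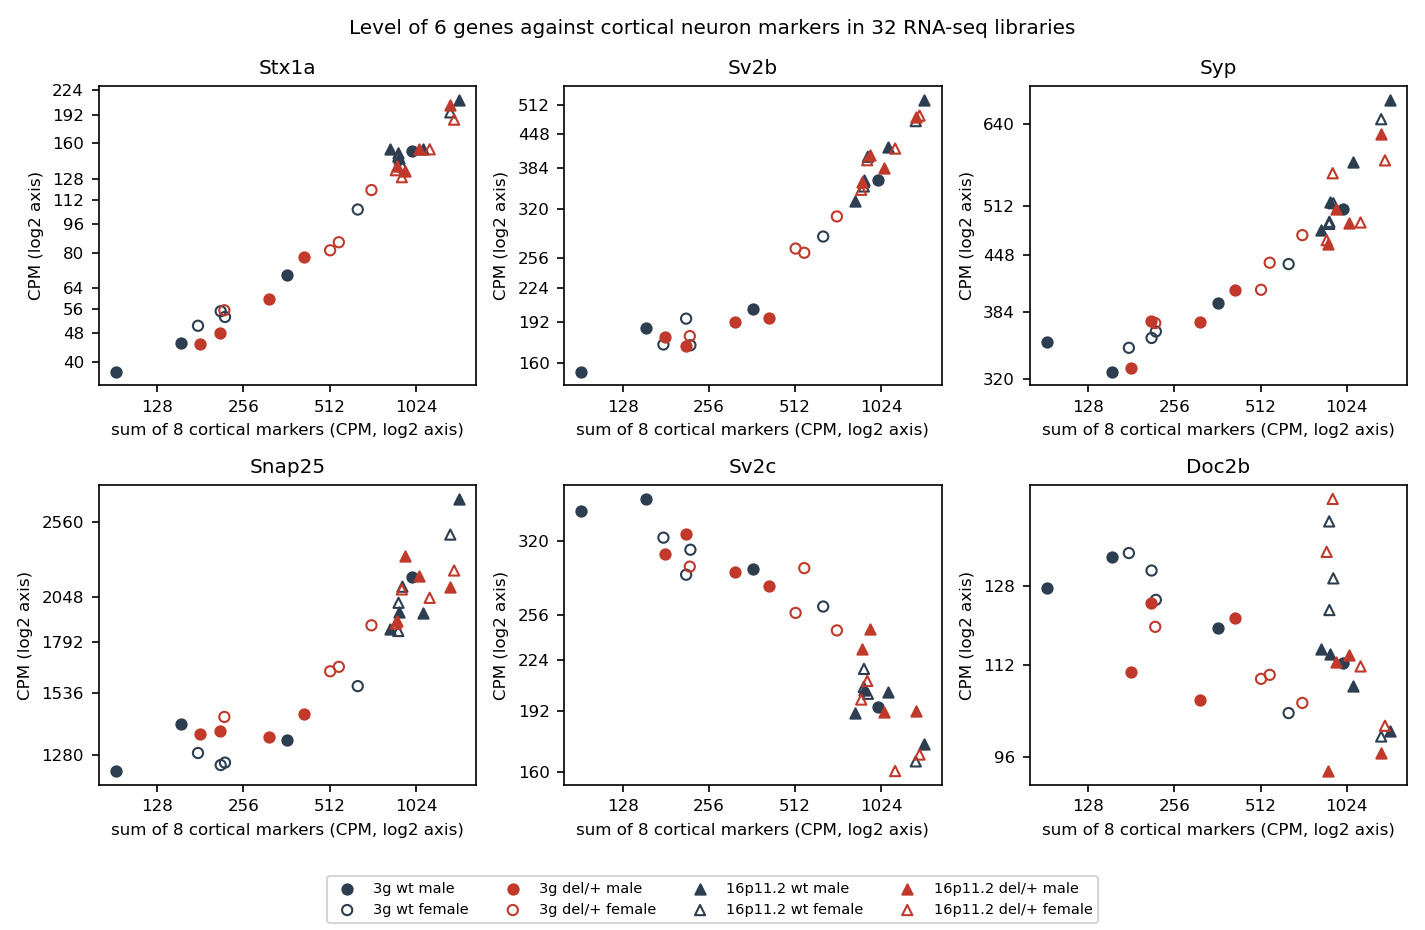
Level of 6 members in CPM (vertical, log2 axis) against the summed CPM of 8 cortical markers (horizontal, log2 axis) in the 32 RNA-seq libraries, with line, genotype and sex as symbols. Stx1a, Sv2b and Syp rise with the sum in both lines and Sv2c falls.

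The lysate RNA of the male animals repeated the genotype comparison in other samples. No member was called in either line (0.0209% of all genes in 3g and 0.133% in 16p11.2). DESeq2 also called none, and 4 members in 3g and 1 in 16p11.2 had an unadjusted p under 0.05 (4.92% and 4.41% of genes). These counts ran from 2 to 10 in 3g and from 0 to 5 in 16p11.2 when 1 animal was left out. The shares of all genes in those fits are not given here. In 3g, 27 of 35 were above 0 (median 0.11), and in 16p11.2, 4 of 35 (median -0.09, all-gene median 0.00). The SNAREs went with most members in each line. All 4 were above 0 in 3g (median 0.22) and all 4 below 0 in 16p11.2 (median -0.16). All 7 vesicle proteins also lay below 0 in 16p11.2 (median -0.25). With most members on the same side, these roles are not set apart from the rest of the list. Cortical markers again went the same way as the members, since all 8 were lower in 16p11.2 del/+ (median -0.22). With the cortical covariate the member medians were 0.05 in 3g and -0.04 in 16p11.2, with 25 and 12 members above 0. The 2 lines were not compared in a single test.

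Cplx1, the complexin that clamps and then speeds fusion, had the largest difference among members whose groups were apart in 3g lysates. Its level was 333, 401 and 363 CPM in del/+ and 307, 288 and 280 CPM in wt. Every del/+ animal was above every wt animal, with a log2 fold change of 0.32 (SE 0.106, adjusted p = 0.940). Syt2, Syt11, Sv2a and Rab3c were also apart, which makes 5 of 35 members against 9.58% of all genes. Syp had the lowest p, with 169, 232 and 204 CPM in del/+ and 174, 126 and 142 CPM in wt (0.45, unadjusted p = 0.00534), and the groups overlapped through wt male 300. Rab3b, the member that led in 3g females, stood at 18.2, 17.6 and 13.7 CPM in del/+ and 14.4, 11.6 and 12.03 CPM in wt males (0.37), again overlapping through wt male 300. In 16p11.2 lysates Syn3, the third synapsin, was apart alone (5.65% of genes), at 7.38, 9.998 and 8.26 CPM in del/+ against 10.8, 10.8, 11.1 and 13.3 CPM in wt. The difference was -0.42 (SE 0.152, unadjusted p = 0.0178, adjusted p = 0.990).

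Other release genes, Prrt2 and Doc2a, lie in the deleted segment and are not members. Prrt2, which restrains release and is linked to paroxysmal dyskinesia, fell in 16p11.2 lysates by 1.21 on the log2 scale (adjusted p = 0.00137), from 93.0, 75.1, 91.5 and 88.5 CPM in wt to 37.2, 42.8 and 31.9 CPM in del/+. In 16p11.2 RNA-seq, where it held only 4 to 32 counts a library, its difference was 0.02 in males (adjusted p = 0.993) and -0.91 in females (adjusted p = 0.998). Doc2a, a sister of Doc2b, was lower in 16p11.2 RNA-seq by -0.82 in males (adjusted p = 0.742) and -0.94 in females (adjusted p = 0.0870). Across 99 other presynaptic genes, of which 94 to 96 were tested in RNA, Prrt2 was the only one called in any genotype comparison.

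Footprints, which count ribosomes on RNA, rest on far fewer reads. Syn3 was below the filter in both lines, with 2 to 16 counts, and Rab3b in 16p11.2, with 2 to 11 counts in that line. Thus 34 members were tested in 3g and 33 in 16p11.2. None was called (0.0132% and 0.117% of all genes), by DESeq2 either. At an unadjusted p under 0.05 there were 3 in 3g and 2 in 16p11.2 (7.97% and 6.15% of genes). The median was 0.08 in 3g and -0.10 in 16p11.2. Del/+ and wt did not overlap for 6 members in 3g, all higher in del/+ (Napb, Syt1, Cplx1, Cplx2, Sv2b and Rab3c, against 14% of all genes in either direction) and for 3 in 16p11.2, all lower (Napb, Syt7 and Doc2b, against 6.64%).

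Rab3c had the largest such difference in 3g. Its footprints were 181, 300.5 and 180 CPM in del/+ and 93.3, 136 and 157 CPM in wt (0.71, SE 0.263, adjusted p = 0.473). In 16p11.2 it was Doc2b, with 36.9, 25.99 and 27.5 CPM in del/+ and 49.6, 39.3, 39.1 and 62.7 CPM in wt (-0.63). The del/+ animals were all below the wt animals. Syt6, a synaptotagmin best known from the sperm acrosome, was the 1 member decided by a single library. It had 749 footprint counts in 3g wt male 300, against 54 and 60 in the other wt and 79, 82 and 76 in del/+ animals. The fitted difference of -2.49 (unadjusted p = 0.00228, adjusted p = 0.406) became -0.11 without that animal. Its lysate RNA in the same animal was 73.0 CPM, the lowest of a range of 73.0 to 88.0 CPM over the 3g animals.

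Footprints per lysate RNA differed widely from member to member. The ratio was taken per animal as log2 and centred on the median gene, so that 0 is the median gene and the value is a quantity relative to it. In 7 wt males Bsn, the giant scaffold bassoon, stood at 0.82 ± 0.29 and Syp at 0.82 ± 0.27 (SD, n = 7), and Syt6 followed at 0.75 ± 1.44, where 3g wt male 300 held 3.95 and the other 6 wt animals lay between -0.19 and 0.65. At the other end were 3 active zone proteins that bind each other or calcium channels at the release site: Rims2 at -1.80 ± 0.21, Erc2 at -1.71 ± 0.30 and Rims1 at -1.64 ± 0.20. Rims2 ranged from -2.19 to -1.56 and Bsn from 0.31 to 1.19 over the 7 animals, so that the extremes did not come near each other in any animal. In every wt animal, 6 members were above the median gene and 16 below it. By mean, 12 of 35 lay above and 23 below, with a member median of -0.23.

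The edgeR test of footprints against lysate RNA in wt animals called 24 members in 3g (9 higher and 15 lower) and 22 in 16p11.2 (6 higher and 16 lower). It called 44.1% of all genes in 3g, 21% higher and 23% lower, and 44.6% in 16p11.2, 20% higher and 24.5% lower. In both lines 20 members were called in the same direction, 5 higher and 15 lower. Of 14662 genes tested in both lines, 34.3% were so called, 14.5% higher and 19.8% lower. A further 6 were called in 1 line, 9 in neither, and 0 in opposite directions. The lines share no animal. The values of Rims2 were -1.81 in 3g (adjusted p = 2.03e-08) and -1.71 in 16p11.2 (adjusted p = 3.99e-10), those of Erc2 -1.53 and -1.76, and those of Rims1 -1.59 and -1.56. Other members called lower were Rab3c (-1.75 and -1.17), Unc13c (-1.44 and -1.45), Napb (-1.35 and -1.19) and Sv2c (-1.31 and -1.19). On the higher side were Syp (1.11 and 0.73), Unc13a, the main priming factor of excitatory terminals (0.88 and 0.74), and Bsn (0.70 and 1.03).

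By role, active zone and priming genes had the lowest median, -1.22, with 2 of 8 above the median gene. All 3 fusion regulators were below it (median -0.79), as were 3 of 4 SNAREs (median -0.50). The 7 vesicle proteins were spread around it (median -0.13), from Syp at 0.82 to Sv2c at -1.34. Roles do not order the genes within them, since Bsn and Unc13a lay at one end of the range and Rims1, Rims2 and Erc2 at the other.

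**Figure D4:**
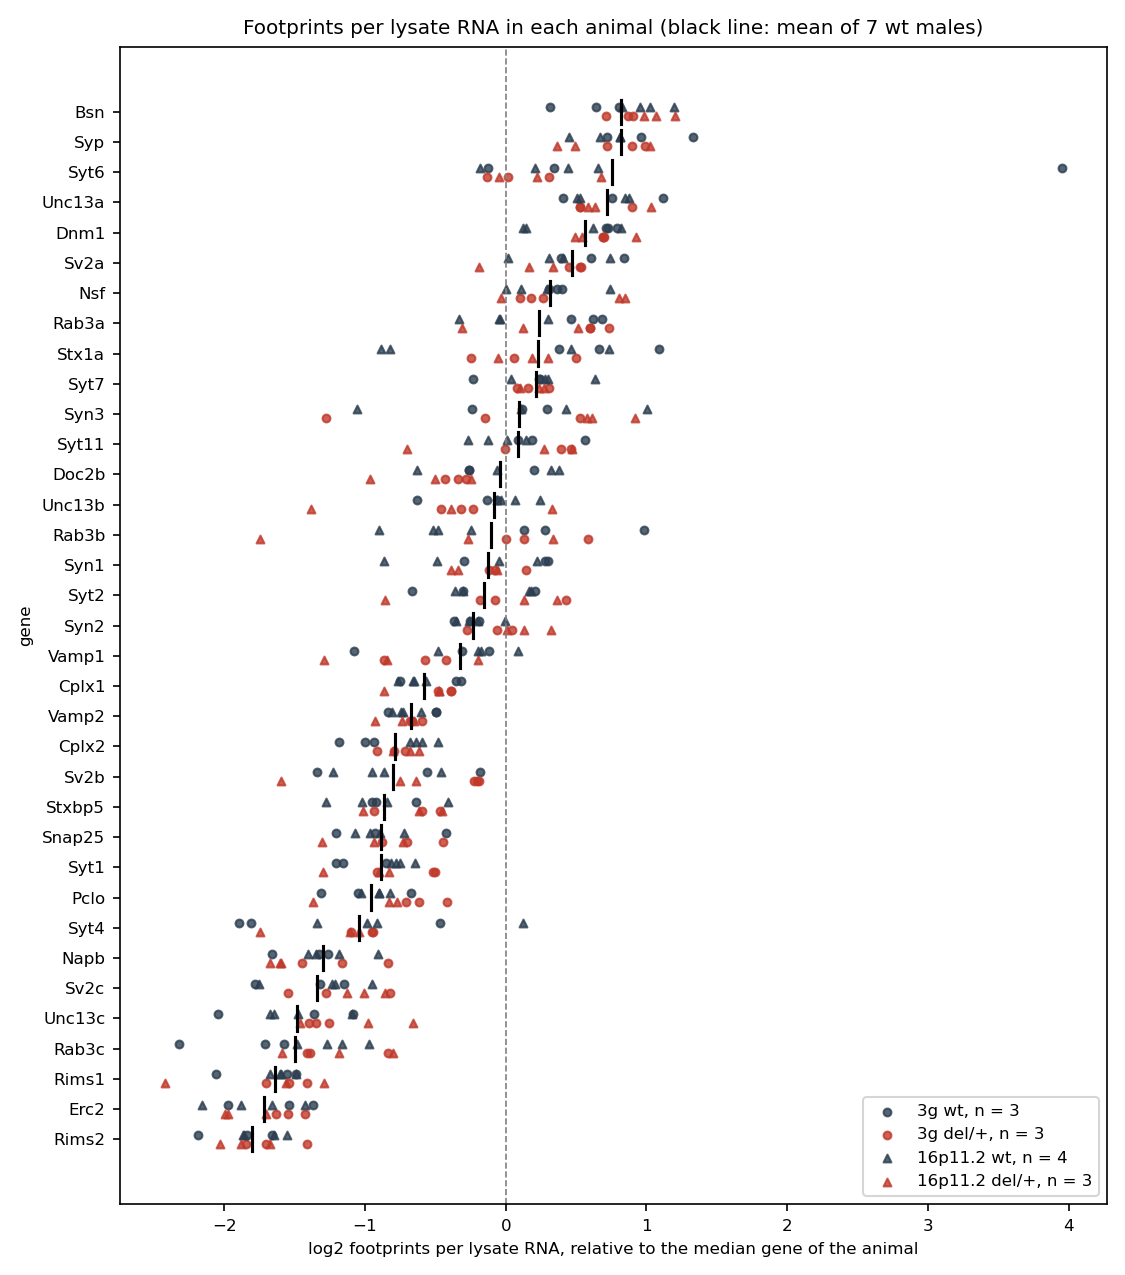
Log2 footprints per lysate RNA relative to the median gene (horizontal axis) for the 35 members (vertical axis, in order of the wt mean). Each point is 1 male animal, coloured by genotype and with symbols for line. Rims2, Erc2 and Rims1 lie left of 0 and Bsn and Syp right of 0 in all 13 animals, in del/+ and wt alike.

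The ratio did not differ by genotype beyond the test for any member. The interaction of genotype and assay called 0 members in both lines (0% and 0.00664% of all genes), as did DESeq2. Rab3c (0.61) and Syt6 (-2.50) in 3g and Vamp1 (-0.59, unadjusted p = 0.0483, adjusted p = 0.796) in 16p11.2 had an unadjusted p under 0.05, which 7.67% and 6.24% of genes had.

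The order of the members depended on what RNA the footprints were divided by. With the RNA-seq libraries of the wt males of the line in the denominator, which come from other samples and another preparation, Pclo, the scaffold piccolo, moved from -0.96 to 1.04, Rims1 from -1.64 to 0.30 and Rims2 from -1.80 to 0.15. Dnm1 moved the other way, from 0.56 to -1.28, Unc13a from 0.72 to -0.52 and Syp from 0.82 to -0.04. Bsn stood at 0.82 and 0.86 with the 2 denominators, Napb at -1.30 and -1.68, and Erc2 at -1.71 and -0.70. With that denominator 8 members were above the median gene, 23 stayed on the same side, and the active zone genes had 5 of 8 above it (median 0.22). The lysate level relative to the RNA-seq level was highest for Pclo (log2 1.94), Rims2 (1.90) and Rims1 (1.88) and lowest for Dnm1 (-1.89) and Syt11 (-1.87). The preparations differ in alignment build, counting and kit, and which difference moves these genes was not tested.

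**Figure D5:**
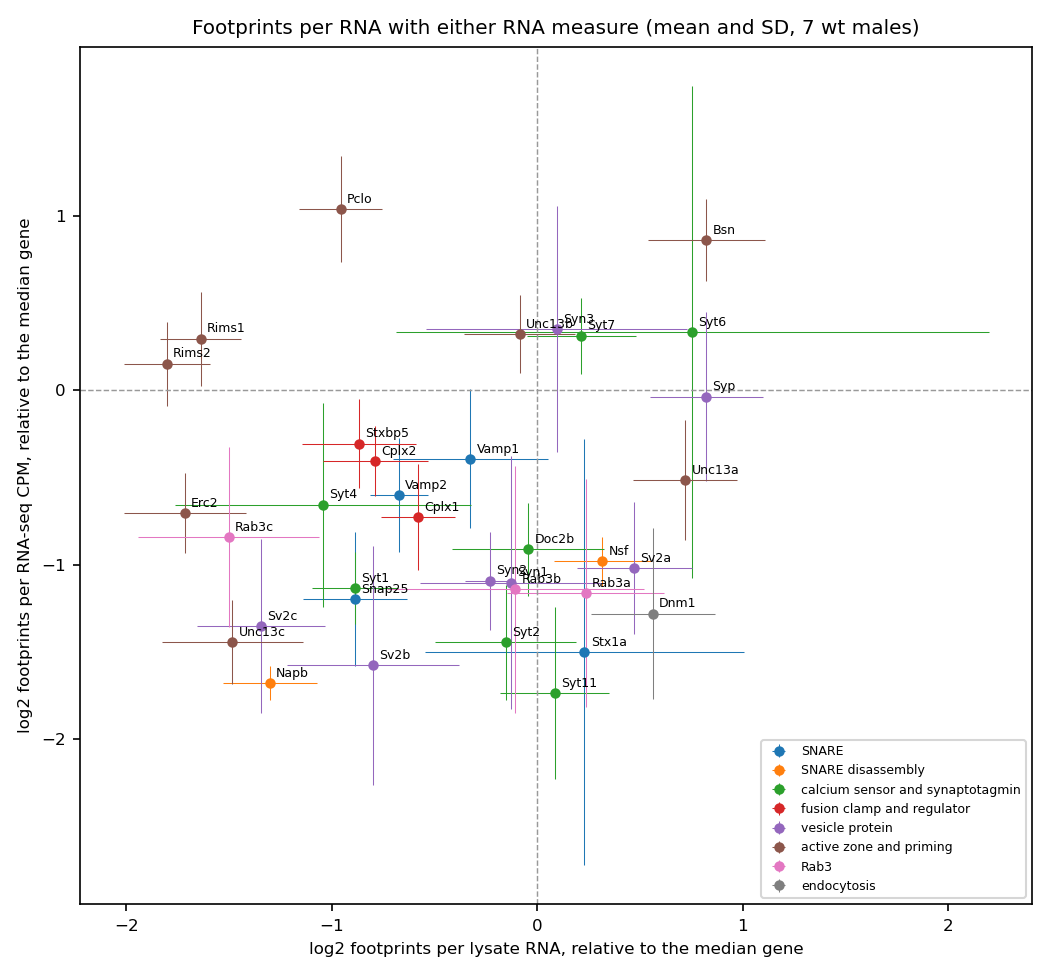
Mean log2 footprints per RNA of the 35 members in wt males relative to the median gene, with lysate RNA (horizontal axis) or RNA-seq (vertical axis) as the denominator; bars are SD and colours are roles. Pclo, Rims1 and Rims2 lie above 0 only on the vertical axis, Dnm1, Unc13a and Syp only on the horizontal one, and Bsn lies above 0 on both.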

How the data were processed

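Striatal RNA-seq, ribosome footprint and lysate RNA libraries of both lines were taken as the raw gene counts the authors deposited, 1 table per line and assay. Per the labels, RNA-seq was counted with HTSeq on mm10 and the other assays were aligned with Bowtie2 to mm39. Versions, and whether counts took in untranslated exons, are not given in the sources used here. CPM were computed with TMM factors over both lines of an assay, and all tests were made within a line. The fit on cortical markers was added after seeing the data. Values of single markers of that panel are not reported here. Genotype, sex, their interaction, and footprints against lysate RNA were tested with edgeR 4.0.16 (quasi-likelihood, filterByExpr, Benjamini-Hochberg over all genes tested, adjusted p under 0.05) in R 4.3.3 with limma 3.58.1, DESeq2 1.42.0 being an alternative. The scripts were tested on simulated data. Standard errors are the fold change over the root of F. The footprint ratio used a pseudocount of 0.5 counts. Footprint and lysate libraries were made from the same lysate per the labels, and 13 same-animal pairs correlated at 0.0743 to 0.309 in their deviations.

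The members and lists were chosen with earlier results of these data known. Described in full were called members (at most 8 by p), the member with the largest difference among those whose groups did not overlap in each comparison, the 3 highest and 3 lowest by footprints per lysate RNA, and other members chosen after their values were seen. A part of the rule on levels per length was not applied, as no lengths were used, so levels are not compared between genes. Promoters are RefSeq windows (GRCm38.p6). Of the 99 other presynaptic genes 98 matched an ID. No libraries were left out and no pair had identical counts.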

Additional observations from a re-analysis of the deposited data

Results flagged for a closer look

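Over all 35 members, 26 of 350 levels within groups of 4 libraries had 1 library set far from the other 3, where chance flags about 1 in 20. Of the 26, 11 belonged to 3g wt female 39, whose summed cortical markers were 642 CPM against 178 to 221 CPM in the other 3g wt females. There Bsn was at 407 CPM (344 to 354 in the others), Dnm1 at 786 (652 to 672), Napb at 371 (306 to 310), Nsf at 676 (597 to 605) and Rims1 at 168 (119 to 123). In the same library Snap25 was at 1570 CPM (1241 to 1286), Stx1a at 105 (50.3 to 55.2), Syn1 at 319.1 (237 to 251), Syt1 at 1092 (889 to 904) and Vamp2 at 818 (755 to 760), while Syt6 was lower, at 162 CPM (188 to 194).

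In 16p11.2 wt male 4, whose cortical markers summed to 1447 CPM, Pclo was at 310 CPM (192 to 194 in the others), Stxbp5 at 129 (87.2 to 92.1), Cplx1 at 867 (612 to 653), Snap25 at 2741 (1860 to 1958) and Stx1a at 211 (146 to 155). In 16p11.2 del/+ male 4, Syn3 was at 20.2 CPM (13.0 to 13.8) and Stxbp5 at 120.3 (95.3 to 99.5), while Syt11 was lower, at 801 CPM (1012 to 1047). Syt4 was at 186 CPM in 16p11.2 del/+ male 1 (148 to 151) and Syn1 at 437 CPM in 16p11.2 del/+ male 2 (362 to 367). In the 3g line Rab3b was at 40.6 CPM in del/+ male 25 (48.5 to 48.9), Unc13c at 298 CPM in del/+ male 32 (233 to 242) and Syt11 at 993 CPM in wt male 17 (753 to 770). In 16p11.2 wt males, 1 of 4 lysates held Syn3 at 13.3 CPM (10.8 to 11.1) and 1 of 4 footprint libraries held Unc13a at 335 CPM (199 to 210).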

How the results depend on the processing

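Counts of called members were within 1.5 times their main value under 175 of 180 removals of 1 library and 72 of 76 other settings. Most of these fits had a main count of 0 and called few of all genes, so a count that stayed at 0 says little. The exceptions were as follows. In 3g females, 2 members were called by DESeq2 and 2 without the filter on low counts (118 and 158 genes in all, against 1), and leaving out 1 library gave 0 to 3, with 3 without wt female 39. In 3g footprints, the unfiltered fit called 1, Syt6. Slopes against cortical markers called 3 to 15 members in 16p11.2 and 18 to 22 in 3g when 1 library was left out. Over all genes the same fits called 117 to 809 in 16p11.2 and 1131 to 6593 in 3g. Without the farthest 2, the fit called 2 members in 16p11.2. With 1 library left out, Sv2b ran from -0.41 to 0.046 and Stx1a from -0.59 to 0.21 in 3g males, both reversed without wt male 17. The uncalled slope of Rab3b in 16p11.2 ran from -0.026 to 0.19, below 0 without wt female 3 or wt male 4, and was -0.081 without the farthest 2. Counts of members at an unadjusted p under 0.05 moved more with 1 library left out. They ran from 8 to 23 in 3g females, 0 to 8 for genotype by sex in 3g and 1 to 14 for sex in 3g. They ran from 0 to 3 in 16p11.2 males and 1 to 4 in the footprints of each line. The share of all genes at that p also rose without 3g del/+ female 37 and, for sex, without 3g wt male 17. These ranges are therefore not read as particular to the members. The causes were not tested.

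Blocking on animal in the genotype test of footprints per lysate RNA called 10 genes in each line (0 and 1 without it) and 0 members, and 24 and 23 members for footprints against lysate RNA. In 16p11.2 RNA-seq the samples share only a number (correlations of -0.218 to 0.117 over 8 pairs), and the replicate block called 14 and 22 genes in the 2 sexes, males first (19 and 26 without it), and 0 members. No paired analysis was possible because the groups share no numbers in 3g RNA-seq. Footprint depth limits single members most, since Syn3, Rab3b and Unc13b had under 20 counts in every library. Unc13b, with 3 to 16 counts, passed the filter and was tested in both lines.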

Other observations

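Among the other presynaptic genes, in 3g females 68 of 96 were above 0, with a median of 0.04, and 11 were higher and 3 lower at an unadjusted p under 0.05. In 3g lysates 60 of 94 were above 0 (median 0.06) and in 16p11.2 lysates 37 of 94 (median -0.05). For footprints against lysate RNA in wt males, 22 of 96 were called higher and 32 lower in 3g, and 20 higher and 37 lower in 16p11.2. Over all genes 21% were called higher and 23% lower in 3g, and 20% and 24.5% in 16p11.2. These lists were fixed with earlier results known and share the libraries of the members.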
